A study of Mus musculus with 4 samples.

Results

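The genes described here encode 10 transcription factors of T cell specification and commitment, namely *Tcf7*, *Lef1*, *Gata3*, *Bcl11b*, *Runx1*, *Runx3*, *Ets1*, *Tcf12*, *Tcf3* and *Ikzf1*. They were taken by symbol from the 23361 genes of the deposited table, and all 10 were found. Early T lineage progenitors (ETP), thymic cells at the start of the T cell pathway, had been sorted as Lin- CD44+ CD25- CD117+ cells from female C57BL6 mice. Per the study's methods, the lineage antibodies that defined Lin- included ones against T cell antigens (CD3ε, CD8α and both T cell receptor types) and the NK cell antigen NK1.1. Young ETP came from mice of 4 to 6 weeks and old ETP from mice of 72 weeks, with 2 libraries for each age and no other treatment or allele named in the labels. The deposited table names the old condition by an age in months that is higher than 72 weeks, and this difference is not explained. Whether each library was made from its own animals or from a pool is not stated, so the p-values rest on variation from library to library that could be technical alone.

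Commitment to the T lineage begins when Notch signals from the thymic stroma reach an incoming progenitor. *Tcf7*, which encodes TCF-1, and *Gata3* are among the first genes induced by these signals, and *Bcl11b* is switched on later, at commitment. *Lef1*, the close relative of *Tcf7*, is known to rise later in thymocyte development as well. The RUNX factors, ETS1, the E proteins encoded by *Tcf12* (HEB) and *Tcf3* (E2A) and the zinc finger protein Ikaros encoded by *Ikzf1* act in progenitors of several lineages and continue to act in T cells. RUNX proteins bind DNA together with CBFB, and the ID proteins hold E proteins off DNA.

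The 4 libraries held 4839341 to 16658864 fragments, with the deeper library numbered 1 in each age, and the order of the numbers within an age is not settled by the labels. Levels of a gene across libraries are given as CPM, fragment counts set to a common library size after TMM scaling, where a count of 0 allows up to 0.177 to 0.664 CPM (3 fragments, counting error only). Markers of ETP were present, with *Kit*, which encodes CD117 and was used in the sort, at 769 and 1065 CPM in young and 909 and 960 CPM in old ETP. The 6 ETP markers summed to 2914 and 3089 CPM in young and 2732 and 2521 CPM in old ETP. Besides *Kit* the list holds *Cd44*, also used in the sort, and *Notch1*. The latter was at 1281 and 1169 CPM in young and 935 and 586 CPM in old ETP. The 6 markers did not move together, as 2 lay higher in both old libraries and 2 in both young libraries. Over the 10080 genes tested between ages below, the shares were 16.4% and 15.7%. Of 12 markers of conventional dendritic cells, 12 lay higher in both old libraries, beside the same 16.4%. DESeq2 called 12 of them and edgeR 0, beside 2.23% and 0% of the 10080 genes. Their summed level was 622 and 1167 CPM in young and 6119 and 21024 CPM in old replicates 1 and 2. The summed level of 8 markers of mature T cells was 20.7 and 21.8 CPM in young and 30.4 and 92.3 CPM in old ETP, and that of 13 markers of NK and innate lymphoid cells was 271 and 301 against 399 and 498 CPM. Of other lists, 8 myeloid markers summed to 770 to 2144 CPM, 8 B cell markers to 25.8 to 40.7 CPM and 6 markers of thymic stroma to 1.59 to 22.1 CPM. *Foxn1*, which defines thymic epithelium, had 0 fragments in every library.

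The transcription factor genes spanned a wide range of levels, and their order was nearly the same in every library. Genes can be compared with each other only per length, so this order uses the authors' FPKM multiplied by a single factor per library (0.710 to 1.43) that brings it to the TMM scale. *Ikzf1* had the highest mean over the 4 libraries at 67.4 scaled FPKM, followed by *Tcf7* at 56.0. These 2 genes together made up 57.3% to 63.0% of the summed FPKM of the 10 genes. *Runx3* (24.7) and *Runx1* (23.1) came next, then *Tcf12* (12.7) and *Tcf3* (12.3), *Ets1* (5.51) and *Gata3* (3.06). *Lef1* at 0.346 and *Bcl11b* at 0.123 scaled FPKM were far below the others. Among all 23361 genes, *Ikzf1* ranked between 245 and 346 by FPKM in each library and *Tcf7* between 274 and 430, whereas *Bcl11b* ranked between 11904 and 12795.
Most steps of this order held within each library. *Ikzf1* was above *Tcf7*, *Tcf7* above *Runx3*, *Tcf3* above *Ets1*, *Ets1* above *Gata3*, *Gata3* above *Lef1* and *Lef1* above *Bcl11b* in 4 of 4 libraries. *Runx3* was above *Runx1* in 3 of 4 libraries and *Tcf12* above *Tcf3* in 2 of 4, so neither pair differed beyond its spread.

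**Figure D1:**
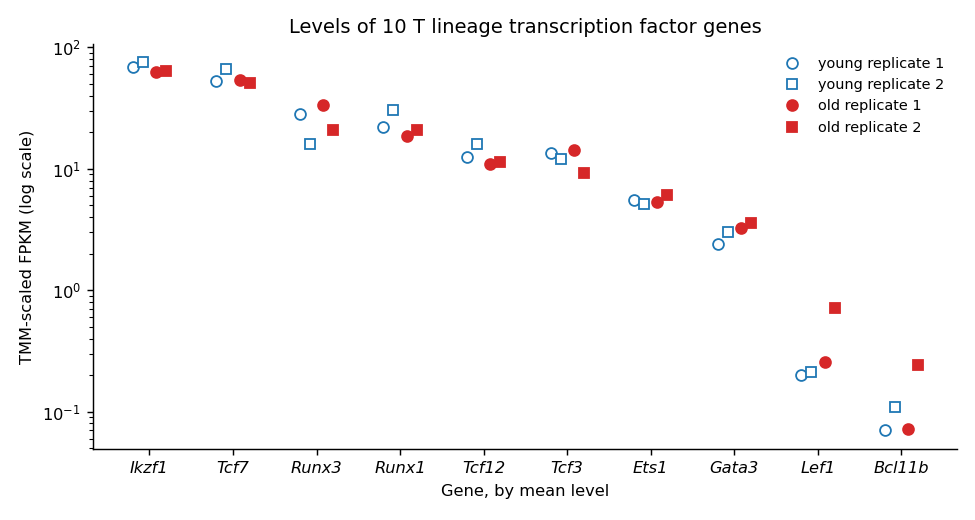
Scaled FPKM on a log axis for the 10 genes in each library, ordered by mean level, with open symbols for young and filled symbols for old ETP and circles and squares for replicates 1 and 2. The points of each gene from *Ikzf1* to *Gata3* lie close together across ages, and *Lef1* and *Bcl11b* lie below all others with old replicate 2 highest.

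None of the 8 genes that could be tested passed edgeR's quasi-likelihood test between old and young ETP. The 8 had at least 1 FPKM in at least 2 libraries, and *Lef1* and *Bcl11b* did not reach this. In edgeR, 0 of 8 had an adjusted p under 0.05 in either direction, beside 0% of all 10080 tested genes in each direction, and 0 of 8 had an unadjusted p under 0.05, beside 5.41% of all tested genes. DESeq2 also called 0 of the 8, beside 2.23% of all tested genes. The estimates were lower in old ETP for 5 of the 8 and higher for 3, with a median log2 fold change of -0.14 against -0.03 for all tested genes, of which 53% had lower estimates. Leaving out young replicate 2 gave a median of -0.063 for these genes, leaving out old replicate 2 gave -0.071, and applying no filter gave -0.020, where *Lef1* and *Bcl11b* entered. The estimates ran from -0.41 for *Runx1* to 0.33 for *Gata3*. The 95% intervals from edgeR all included 0, and the widest, that of *Runx3*, ran from -0.72 to 1.34, so changes within these intervals are not excluded. The intervals do not mark a limit of detection, as edgeR called 0 of all tested genes, also ones with far larger estimates. The libraries of the 2 ages did not overlap for 4 of the 8 genes, *Ikzf1*, *Runx1* and *Tcf12* with the young libraries higher and *Gata3* with the old libraries higher. Over all tested genes this happened for 32.1%, in 15.7% with the young and in 16.4% with the old libraries higher.

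**Figure D2:**
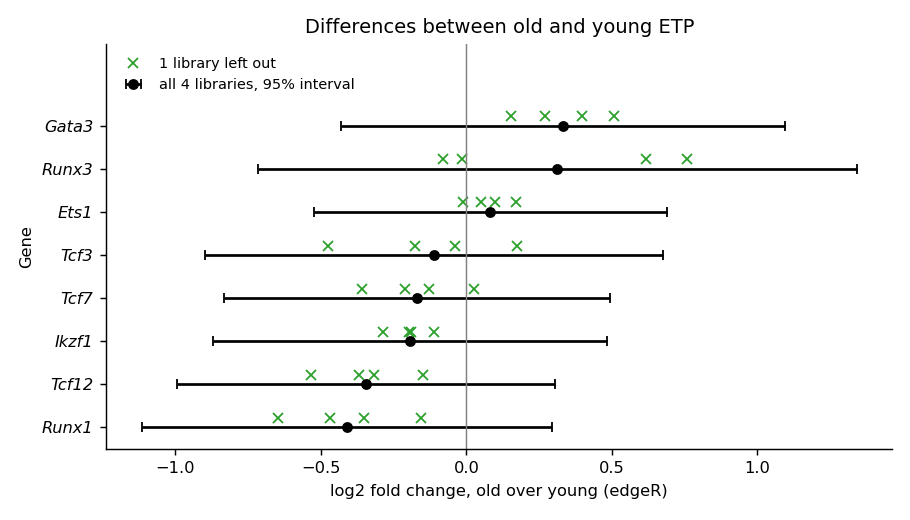
EdgeR log2 fold change of old over young ETP for the 8 tested genes. Black points and bars are the estimate from 4 libraries with its 95% interval, and green crosses are estimates with a library left out. Every interval includes 0, and the crosses of *Runx3*, *Ets1*, *Tcf3* and *Tcf7* lie on both sides of it.

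The early genes of the T lineage program, *Tcf7* and *Gata3*, were present in all libraries. *Tcf7* (GRCm38 chromosome 11, 52252371 to 52283014, minus strand) was at 315 and 396 CPM in young and at 325 and 307 CPM in old replicates 1 and 2. The ages overlapped, with old replicate 1 between the young libraries, and the means were 355 ± 57.8 CPM in young and 316 ± 12.9 CPM in old ETP (SD, n = 2 libraries each). Its log2 fold change from young to old was -0.17 (standard error 0.26, 95% interval -0.83 to 0.49) and turned to 0.03 without young replicate 2. *Gata3*, which encodes a zinc finger factor needed at several steps of T cell development, was at 21.6 and 26.6 CPM in young and 29.0 and 31.6 CPM in old ETP. Both old libraries lay above both young libraries, with means of 24.1 ± 3.53 and 30.3 ± 1.88 CPM (SD, n = 2). The log2 fold change of *Gata3* was 0.33 (standard error 0.30, interval -0.43 to 1.09) and ran from 0.15 to 0.51 with a library left out. The locus of *Gata3* on chromosome 2 of GRCm38 (9857078 to 9890034, minus strand) shares 155 exonic bases with *Gm13256* on the other strand in GENCODE M21, and the sources used here do not state whether counting used strand.
Within a library, *Tcf7* had 21.7 and 22.1 times the FPKM of *Gata3* in young ETP and 16.7 and 14.3 times in old ETP. Such a ratio does not depend on how libraries are scaled to each other. The log2 ratio was lower by 0.50 in old ETP, and the ages did not overlap. An exact two-sided permutation test gave p = 0.333, the smallest that 2 against 2 libraries allow (adjusted p = 0.667 over 8 ratios).

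The later genes of the program, *Bcl11b* and *Lef1*, had few fragments in ETP of both ages. *Bcl11b* (chromosome 12, 107910403 to 108003602, minus strand), which encodes a zinc finger protein that closes off other fates at commitment, had 27 and 16 fragments in the young and 20 and 24 in the old replicates 1 and 2. This gave 1.59 and 2.49 CPM in young and 1.61 and 5.31 CPM in old ETP, so that old replicate 1 lay between the young libraries and old replicate 2 above all others. *Lef1* (chromosome 3, 131110471 to 131224356, plus strand) had 35 and 14 fragments in the young and 32 and 29 in the old libraries, or 2.06 and 2.18 CPM against 2.58 and 6.42 CPM. Its old libraries both lay above the young ones, but the 95% Poisson interval of old replicate 1 (1.77 to 3.65 CPM) held both young values. For old replicate 2 the intervals were 4.30 to 9.22 CPM for *Lef1* and 3.40 to 7.90 CPM for *Bcl11b*, above the values of all other libraries. These intervals cover counting error only. In edgeR with no filter on low values the log2 fold changes were 1.01 for *Lef1* (standard error 0.73, adjusted p = 0.999) and 0.70 for *Bcl11b* (standard error 0.78, adjusted p = 0.999).
Old replicate 2 was also the library with the highest summed level of mature T cell markers (92.3 CPM against 20.7 to 30.4 in the others) and of dendritic cell markers (21024 CPM against 622 to 6119). *Cd3e*, a gene of the former list that encodes CD3ε, was at 36.7 CPM there, whereas *Cd8b1* of that list had 0 fragments there. Summed markers of NK and innate lymphoid cells were highest there too (498 CPM against 271 to 399 in the others). So were those of B cells (40.7 against 25.8 to 34.9) and thymic stroma (22.1 against 1.59 to 9.33). The summed ETP, myeloid and erythroid markers were lowest there, and this library had the fewest fragments. Of the 8 mature T cell markers, 4 lay higher in both old libraries, beside 16.4% of all tested genes, and 5 of the 8 were below the filter. In the other direction 1, *Cd4*, lay higher in both young libraries (11.4 and 10.1 CPM in young against 4.52 and 8.41 CPM in old ETP), beside 15.7% of all tested genes. The sort was set to remove cells with surface CD3ε, CD8α or a T cell receptor. The part of mature T and dendritic cells in the levels of *Lef1* and *Bcl11b* was not tested, and in bulk RNA a change in the share of a cell type and a change in RNA per cell cannot be told apart. In GENCODE M21 an antisense gene, *Gm43352*, covers 13.75% of the exonic bases of *Lef1*.
The ratio of *Tcf7* to *Lef1* was large in every library, at 260 and 309 in the young and 213 and 71.7 in the old libraries. The log2 ratio was lower by 1.20 in old ETP (exact permutation p = 0.333, the smallest possible, adjusted p = 0.667) and by 0.41 without old replicate 2. The ratio of *Gata3* to *Bcl11b* was 34.5 and 27.4 in the young and 45.0 and 14.8 in the old libraries, with old replicate 1 above and old replicate 2 below both young libraries (exact permutation p = 1).

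**Figure D3:**
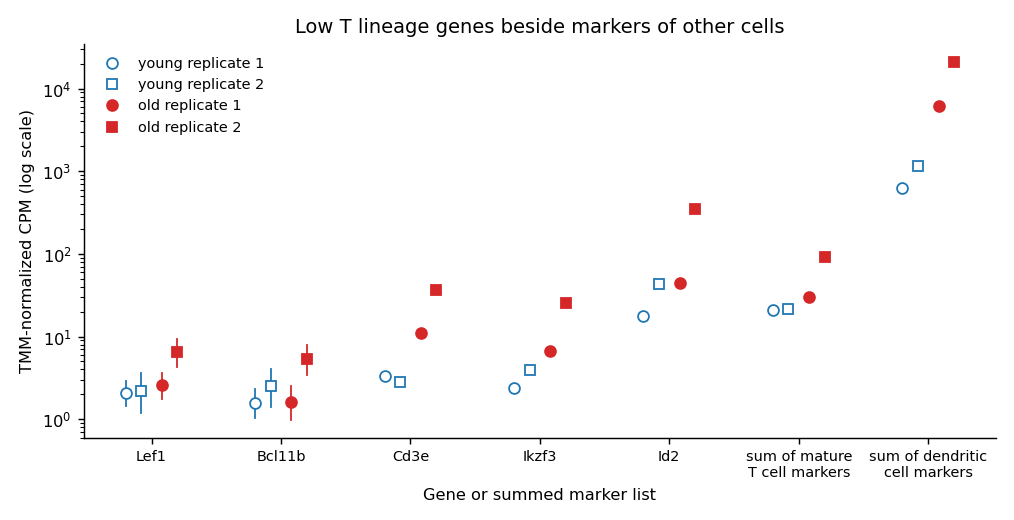
TMM-normalized CPM on a log axis for *Lef1* and *Bcl11b* with 95% Poisson intervals (vertical lines), beside *Cd3e*, *Ikzf3*, *Id2* and the summed markers of mature T cells and of dendritic cells, in the 4 libraries. Old replicate 2 (filled square) is highest in each column, at 6.42 CPM for *Lef1* and 5.31 CPM for *Bcl11b*. The other columns were chosen with results of these data known, *Ikzf3* after its values were seen, so the shared pattern is no test.

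The promoters of the 2 genes with the lowest levels are shown because TCF-1, the product of *Tcf7*, is known to act on *Bcl11b* in T cell development and *Lef1* encodes its relative. They are windows of 300 bases around an annotated start from RefSeq (GRCm38.p6), for *Lef1* chr3:131110047-131110346 on the plus strand and for *Bcl11b* chr12:108003365-108003664 on the minus strand. Capitals mark the letters CTTTG, the core bound by TCF-1 and LEF-1, on either strand.
Lef1: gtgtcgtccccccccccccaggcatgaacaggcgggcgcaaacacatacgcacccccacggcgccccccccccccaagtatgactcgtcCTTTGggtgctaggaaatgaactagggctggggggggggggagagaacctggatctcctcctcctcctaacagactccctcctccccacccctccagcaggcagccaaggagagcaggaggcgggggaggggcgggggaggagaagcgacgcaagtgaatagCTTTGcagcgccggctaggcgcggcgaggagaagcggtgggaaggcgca
Bcl11b: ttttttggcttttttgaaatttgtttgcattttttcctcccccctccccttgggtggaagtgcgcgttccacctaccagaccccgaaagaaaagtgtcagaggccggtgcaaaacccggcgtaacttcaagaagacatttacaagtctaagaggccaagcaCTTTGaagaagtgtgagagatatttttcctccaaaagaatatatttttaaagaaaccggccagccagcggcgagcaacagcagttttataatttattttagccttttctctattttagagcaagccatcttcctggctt
The *Lef1* window held this core 2 times and the *Bcl11b* window 1 time, the other 3 *Lef1* windows held it 1 to 3 times, and 53.9% of the 32851 promoter windows of all genes held it at least once. The *Lef1* window had a GC content of 67.3% and the *Bcl11b* window 43%, against a median of 52.7% over all promoter windows. A match describes letters only and says nothing of binding.

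The RUNX genes were expressed at similar levels, and *Runx3* differed more between libraries of an age than between ages. *Runx1* (chromosome 16, 92601466 to 92826149, minus strand), which is needed for the first blood stem cells and in early thymocytes, was at 376 and 510 CPM in young and 320 and 347 CPM in old ETP. Both young libraries lay above both old libraries, with means of 443 ± 94.4 and 333 ± 18.9 CPM (SD, n = 2). Its log2 fold change of -0.41 (standard error 0.28, interval -1.12 to 0.30, unadjusted p = 0.198 in edgeR) was the lowest of the 8 and ran from -0.65 to -0.16 with a library left out, the latter without young replicate 2. *Runx3* (chromosome 4, 135120652 to 135177990, plus strand), known in thymocytes for its part in the CD8 lineage and also active in NK and dendritic cells, was at 308 and 174 CPM in young and 370 and 228 CPM in old replicates 1 and 2. The replicate 1 library was the higher in each age, by 0.83 on the log2 scale in young and 0.70 in old ETP, and replicate 1 was also the deeper library. The log2 fold change of *Runx3* between ages was 0.31 (standard error 0.41, interval -0.72 to 1.34), and it turned to -0.01 without young replicate 2 and to -0.08 without old replicate 1. The part of depth and of other cell types in these levels was not tested.
The ratio of *Runx1* to *Runx3* within a library was 0.783 and 1.92 in the young and 0.555 and 0.992 in the old libraries. The ages overlapped (exact permutation p = 0.667, adjusted p = 0.762), and the log2 ratio differed by 1.29 between the young and by 0.84 between the old libraries, more than the 0.72 between the age means. For *Cbfb*, which encodes the partner that both proteins bind, the levels were 215 and 356 CPM in young and 186 and 314 CPM in old ETP. The sum of *Runx1* and *Runx3* was 1.86 and 1.02 times *Cbfb* in young and 2.25 and 1.05 times in old ETP by FPKM, and the ages overlapped (exact permutation p = 0.667, adjusted p = 0.762). By CPM *Cbfb* was higher in replicate 2 of each age, the opposite of *Runx3*.
Both RUNX genes have a distal and a proximal start in RefSeq, which values per gene do not separate. The distal windows are shown because both hold TGNGGT, a search pattern with any base at N and so looser than the RUNX core. They lie at chr16:92826025-92826324 on the minus strand for *Runx1* and chr4:135120395-135120694 on the plus strand for *Runx3*. Capitals mark TGNGGT on either strand and, in *Runx1*, also CTTTG, and no 2 matches overlap.
Runx1: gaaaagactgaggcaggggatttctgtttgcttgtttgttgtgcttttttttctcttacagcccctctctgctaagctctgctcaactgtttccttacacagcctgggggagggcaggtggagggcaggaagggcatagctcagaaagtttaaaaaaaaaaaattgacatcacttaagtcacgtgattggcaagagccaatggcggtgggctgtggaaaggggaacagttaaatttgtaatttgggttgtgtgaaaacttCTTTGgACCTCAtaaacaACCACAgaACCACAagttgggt
Runx3: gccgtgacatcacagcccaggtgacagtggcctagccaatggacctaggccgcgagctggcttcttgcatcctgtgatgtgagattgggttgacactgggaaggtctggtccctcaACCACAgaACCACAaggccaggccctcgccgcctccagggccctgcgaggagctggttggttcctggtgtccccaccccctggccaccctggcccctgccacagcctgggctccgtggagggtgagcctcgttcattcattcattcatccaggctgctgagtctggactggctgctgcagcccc
TGNGGT occurred 3 times in the distal window of *Runx1* and 2 times in that of *Runx3*, and 0 times in the proximal window of either gene. As printed, the first *Runx1* match reads ACCTCA, and the others in both windows read ACCACA. Because N may be any base, these are not counts of RUNX sites. Of all 32851 promoter windows 45.8% held TGNGGT, and of the 9 genes described here with a promoter entry 5 held it in at least 1 window. For the other patterns the counts were 6 of 9 genes for CTTTG (53.9% of all windows), 2 of 9 for the GATA core NGATAA (25.3%), 4 of 9 for the ETS core CCGGAA (14.9%) and 6 of 9 for the E box CAGNTG (51.4%). The 9 genes had 18 windows in all, so a gene had more than 1 chance to match. Counted by window, as the shares of all windows are, matches were in 6 of 18 for TGNGGT and 11 of 18 for CTTTG. For NGATAA they were in 2 of 18, for CCGGAA in 4 of 18 and for CAGNTG in 8 of 18.

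*Ikzf1* and *Ets1* varied little, with libraries of an age at most 0.18 apart on the log2 scale. *Ikzf1* (chromosome 11, 11685003 to 11772926, plus strand), which encodes Ikaros, a regulator of lymphoid fate in progenitors, was at 990 and 1079 CPM in young and 902 and 907 CPM in old ETP. Both old libraries lay below both young libraries, with means of 1035 ± 62.6 and 904 ± 3.56 CPM (SD, n = 2), a log2 fold change of -0.19 (standard error 0.27, interval -0.87 to 0.48). With a library left out it ran from -0.29 to -0.11. *Ets1* (chromosome 9, 32636221 to 32757820, plus strand), a factor that cooperates with RUNX proteins at T cell enhancers, was at 77.9 and 72.6 CPM in young and 74.7 and 84.8 CPM in old ETP, and the ages overlapped. The log2 fold change of *Ets1* was 0.08 (standard error 0.24, interval -0.53 to 0.69), and it changed sign to -0.01 without old replicate 2 and to -0.17 in limma on log2(FPKM + 1), in which all genes together had a median of -0.27.
The ratio of *Ikzf1* to *Ets1* within a library was 12.5 and 14.7 in the young and 11.7 and 10.4 in the old libraries. The log2 ratio was lower by 0.29 in old ETP with no overlap of the ages (exact permutation p = 0.333, the smallest possible, adjusted p = 0.667).

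The E protein genes *Tcf12* and *Tcf3* had similar levels per length, while *Id2*, the gene of an inhibitor of E proteins, was highest in old replicate 2. *Tcf12* (chromosome 9, 71842688 to 72111871, minus strand) was at 165 and 207 CPM in young and 144 and 149 CPM in old ETP, with both young libraries higher. Its log2 fold change was -0.34 (standard error 0.26, interval -0.99 to 0.31) and ran from -0.53 to -0.15 with a library left out. *Tcf3* (chromosome 10, 80409514 to 80433647, minus strand) was at 125 and 110 CPM in young and 132 and 84.5 CPM in old ETP, so that the young libraries lay between the old ones. Its log2 fold change of -0.11 (standard error 0.31, interval -0.90 to 0.67) turned to 0.17 without old replicate 2. The ratio of *Tcf12* to *Tcf3* was 0.921 and 1.33 in the young and 0.760 and 1.24 in the old replicates 1 and 2, and the ages overlapped (exact permutation p = 0.667, adjusted p = 0.762).
*Id2* was at 17.6 and 43.1 CPM in young and 44.2 and 345 CPM in old replicates 1 and 2. Old replicate 1 was barely above young replicate 2, and old replicate 2 stood far above the rest. The log2 fold change was 2.68 (standard error 1.02, adjusted p = 0.882 in edgeR and 0.0488 in DESeq2), and it was 0.55 without old replicate 2. *Id1* and *Id3* were at 6.89 CPM or less in every library. By FPKM they weighed more in replicate 1, at 2.40 and 4.55 beside 8.03 for *Id2* in young and 1.44 and 2.23 beside 16.6 in old ETP. In replicate 2 they were at 0.0651 and 0.0615 beside 11.9 in young and 0 and 0.0697 beside 76.2 in old ETP. The summed FPKM of *Tcf12* and *Tcf3* was 2.45 and 2.01 times that of *Id1*, *Id2* and *Id3* in young and 1.46 and 0.189 times in old ETP. The log2 ratio was lower by 2.08 in old ETP (exact permutation p = 0.333, the smallest possible, adjusted p = 0.667) and by 0.61 without old replicate 2. *Id2* is also known from NK, innate lymphoid and dendritic cells. Their summed markers were highest in the same library. Of the dendritic cell markers 12 of 12 lay higher in both old libraries, and of the NK and innate lymphoid markers 8 of 13. Over all tested genes this share was 16.4%, and 5 of the 13 were below the filter. NK1.1+ cells were among those the sort was set to remove, and the part of these cell types in the level of *Id2* was not tested.

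**Figure D4:**
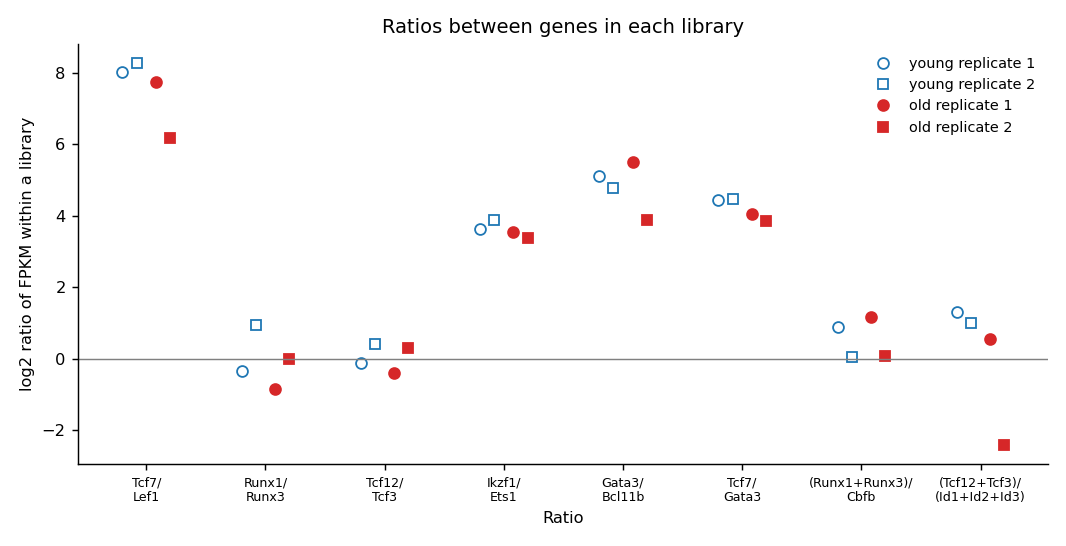
Log2 ratio of FPKM between genes, or sums of genes, within each of the 4 libraries, with open symbols for young and filled symbols for old ETP and circles and squares for replicates 1 and 2. The ages do not overlap for *Tcf7* to *Lef1*, *Ikzf1* to *Ets1*, *Tcf7* to *Gata3* and E proteins to ID genes, and the largest distance, in the last of these, is set by old replicate 2.

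Partners and relatives of these factors mostly had lower estimates in old ETP, whereas that of *Id2* was higher. Of 32 such genes 25 were tested, and the estimate was higher in old ETP for 6 and lower for 19. Their median log2 fold change was -0.23 against -0.03 for all tested genes. EdgeR called 0 of the 25 in either direction, and 1 higher and 1 lower had an unadjusted p under 0.05, beside 450 higher and 95 lower of all 10080 tested genes. DESeq2 called *Id2* alone, beside 2.23% of all tested genes. *Erg*, a stem cell factor of the ETS family, was at 109 and 125 CPM in young and 68.5 and 81.2 CPM in old ETP (log2 fold change -0.65, standard error 0.25, adjusted p = 0.916 in edgeR). *Bcl11a*, the relative of *Bcl11b* known from B cell and progenitor programs, was at 431 and 426 CPM in young and 287 and 311 CPM in old ETP (log2 fold change -0.52, standard error 0.24, adjusted p = 1.00 in edgeR). The young libraries of both genes lay above the old ones. Both were among the 3 smallest p of the list, so this separation is no further support. Of the 25 tested genes 6 had the young libraries higher and 1 the old, beside 15.7% and 16.4% of all tested genes. *Ctnnb1*, which encodes beta-catenin, a coactivator that binds TCF-1, was at 465 and 481 CPM in young and 420 and 470 CPM in old ETP, and the ages overlapped. Without young replicate 2 the estimates of the list split 12 to 13, with a median of -0.05. A relative of *Ikzf1* named after its values were seen, *Ikzf3*, was below the filter at 2.36 and 3.89 CPM in young and 6.62 and 25.2 CPM in old ETP, with old replicate 2 again the highest.

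Other regulators of the T lineage also had mostly lower estimates in old ETP. Of 16 such genes 13 were tested, with 4 higher and 9 lower estimates and a median log2 fold change of -0.42. EdgeR and DESeq2 called 0 of the 13, beside 0% and 2.23% of all tested genes. In edgeR 0 of the 13 had an unadjusted p under 0.05, beside 5.41% of all tested genes. *Notch1*, which encodes the receptor that starts the program, was at 1281 and 1169 CPM in young and 935 and 586 CPM in old replicates 1 and 2 (log2 fold change -0.69, standard error 0.34, and -0.39 without old replicate 2 or -1.06 without old replicate 1). The gene of the progenitor factor *Myb* was at 929 and 1011 CPM in young and 725 and 589 CPM in old ETP (log2 fold change -0.56, standard error 0.28). *Sox13*, known from gamma delta T cell development, was at 64.2 and 40.4 CPM in young and 29.6 and 9.96 CPM in old ETP (log2 fold change -1.38, standard error 0.58, and -0.82 without old replicate 2). The young libraries of these 3 genes lay above the old ones. They had the 3 smallest p of the list, so this separation is no further support. Of the 13 tested genes 6 had the young libraries higher and 1 the old, beside 15.7% and 16.4% of all tested genes. The adjusted p of the 3 in edgeR were 0.972 to 1.00. *Zbtb7b*, a factor of the CD4 lineage named after its values were seen, was below the filter at 1.00 and 1.09 CPM in young and 7.43 and 21.2 CPM in old ETP.

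Genes that carry out T cell functions had estimates in both directions. Of 23 such effector genes 17 were tested, with estimates higher in old ETP for 8 and lower for 9, and the median log2 fold change was -0.15. This median turned to 0.26 without young replicate 2, to 0.17 without old replicate 1 and to 0.06 without old replicate 2. EdgeR called 0 of the 17, with 4 higher and 2 lower at an unadjusted p under 0.05, beside 450 higher and 95 lower of all 10080 tested genes. DESeq2 called *Cd3e* alone, beside 2.23% of all tested genes. *Cd3e* was at 3.36 and 2.80 CPM in young and 10.9 and 36.7 CPM in old ETP (log2 fold change 2.92, standard error 0.68, adjusted p = 0.463 in edgeR and 0.00142 in DESeq2), and the log2 fold change was 1.81 without old replicate 2. *Cd2*, an adhesion receptor gene of T and NK cells, was at 1.00 and 2.33 CPM in young and 5.17 and 8.85 CPM in old ETP. The costimulatory receptor gene *Cd28* was at 8.95 and 2.80 CPM in young and 19.1 and 29.0 CPM in old ETP. These 3 genes lay higher in both old libraries, as did the summed markers of dendritic and mature T cells, whose part was not tested (the latter list shares *Cd3d*, *Cd3e* and *Cd3g* with the effector genes). The 3 had the smallest p of the list, so their separation is no further support. Of the 17 tested genes 5 had the old libraries higher and 3 the young, beside 16.4% and 15.7% of all tested genes. In the other direction, *Cd27*, a receptor gene of lymphoid progenitors and T cells, was at 383 and 341 CPM in young and 240 and 215 CPM in old ETP (log2 fold change -0.67, standard error 0.25, adjusted p = 0.867 in edgeR). *Cd7* was at 60.2 and 83.8 CPM in young and 79.4 and 85.4 CPM in old ETP, and the ages overlapped. *Ptcra*, named after its values were seen, which encodes the chain that pairs with TCR beta, had 0 fragments in all 4 libraries.

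**Figure D5:**
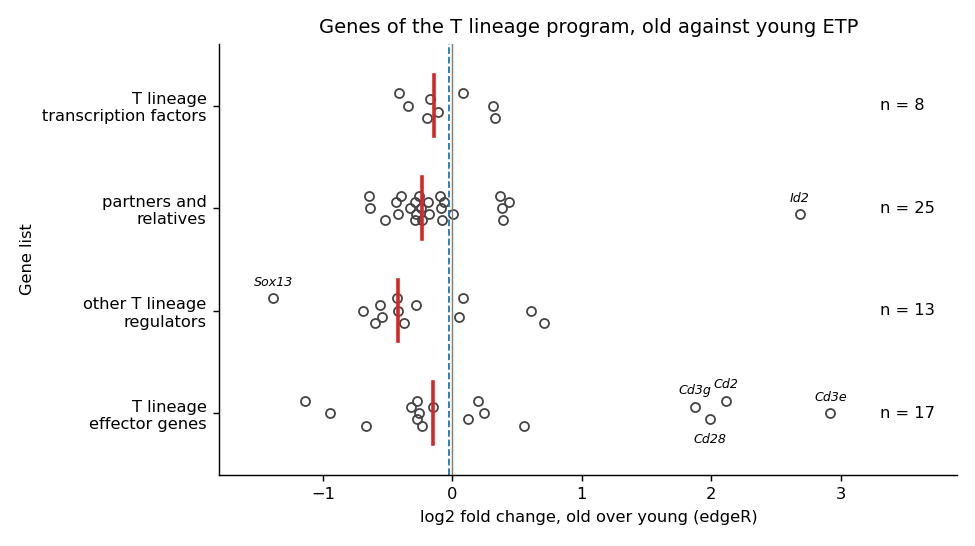
EdgeR log2 fold change of old over young ETP for the tested genes of 4 lists, each circle a gene, with red bars at list medians and a blue dashed line at the median of all tested genes (-0.03). The 8 transcription factor genes lie between -0.41 and 0.33, whereas *Id2*, *Cd3e*, *Cd3g*, *Cd2* and *Cd28* lie above 1 and *Sox13* and *Rag2* below -1.

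Across the 4 libraries, the tested genes with CPM profiles nearest to that of *Runx1*, by Euclidean distance of centred log2 CPM, were *Smim8* (distance 0.01), *Alyref2* (0.03) and *Sypl* (0.03). Those nearest to *Gata3* were *Tax1bp3* (0.04), *Pkd1* (0.04) and *Tet3* (0.06). With 4 libraries and 10080 genes, such near matches describe these libraries only.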

How the data were processed

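RNA of ETP from 2 young and 2 old samples was amplified with a Nugen Ovation kit and sequenced in pairs. The authors used STAR 2.3.0 with the GRCm38 (mm10) genome, as their methods and the submitters' processing notes say. The deposited table looks like read group output of Cuffdiff, from Cufflinks 2.1.1. Per gene and library it holds the authors' estimated counts (fragments, not normalized) and the authors' FPKM (scaled by library and transcript length). How these fragments were counted, and with which strand setting and filters, the sources used here do not give, and a column of fragments scaled by the authors was not used. Conditions in the table gave the age, and its replicate numbers were taken in order as samples 1 and 2.

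Counts were rounded, scaled by TMM and compared with edgeR 4.0.16 in R 4.3.3 (quasi-likelihood test with a term for age, Benjamini-Hochberg adjustment over the 10080 genes with at least 1 FPKM in at least 2 libraries, threshold 0.05). FPKM ratios within libraries were compared by exact permutation tests. The libraries of an age differed far beyond sampling noise (chi-square per gene 57.5 and 68.4). The edgeR steps were tested on simulated data. Alternatives were DESeq2 1.42.0, limma 3.58.1 on log2 FPKM, other scalings and filters, a replicate term and leaving out each library.

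Members and gene lists were chosen with earlier results of these data known. Named genes outside the 10 were, per list, those with the 2 highest mean FPKM and the 3 smallest p, the 3 nearest profiles, any past the threshold, and others named as chosen later. For cell types only list totals and defining genes are given. Sequences are from RefSeq and loci from GENCODE M21, both on GRCm38.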

Additional observations from a re-analysis of the deposited data

How the results depend on the processing

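EdgeR called 0 of all tested genes, against 225 with DESeq2, 508 with no filter on low values, 1 with limma on log2(FPKM + 0.1) and 481 of 10080 with the replicate block, and 0 to 221 with a library left out, the latter without old replicate 1. Of the 8 tested transcription factor genes 0 were called under any alternative that gave them a value (7 of the 8 under the stricter filter), and *Lef1* and *Bcl11b*, which had a value only with no filter, were not called there. With the replicate block the smallest adjusted p among the 8 was 0.178 (*Runx1*). Same-numbered libraries deviated together (r = 0.73 over 10080 genes). Replicate 1 was also the deeper library in each age. With 2 pairs and no label that ties them beyond the number, the reason was not tested. Among partners, 0 calls became 1 with DESeq2, 2 with no filter, 1 with the replicate block and 0 to 1 with a library left out. Among other regulators they became 2 with no filter and 2 with the replicate block, and among effector genes 1 with DESeq2, 2 with no filter, 4 with the replicate block and 0 to 1 with a library left out.

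Ranges here are over fits with a library left out. Directions turned for *Ets1* (-0.17 and -0.19 in limma with pseudocounts of 1 and 0.1, -0.012 without old replicate 2, range -0.012 to 0.17), *Cd7* (-0.089 and -0.093 in limma, -0.059 without young replicate 1, range -0.059 to 0.47), *Tcf7* (0.026 without young replicate 2, range -0.36 to 0.026), *Runx3* (-0.015 without young replicate 2, -0.080 without old replicate 1, range -0.080 to 0.76) and *Tcf3* (0.17 without old replicate 2, range -0.47 to 0.17). In limma the median of all genes was -0.27 and -0.33. The effector median turned to 0.26, 0.17 and 0.059 without young replicate 2, old replicate 1 and old replicate 2 (range -0.059 to 0.26). Log2 ratios turned for *Tcf12* to *Tcf3* (0.08 without young replicate 2, 0.17 without old replicate 1, range -0.54 to 0.17), *Gata3* to *Bcl11b* (0.55 without old replicate 2, range -1.05 to 0.55) and the RUNX sum to *Cbfb* (-0.27 without young replicate 2, -0.40 without old replicate 1, range -0.40 to 0.71). The causes were not tested. *Lef1* and *Bcl11b* had only 14 to 35 fragments per library, so counting error weighs on their values.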
